A study of Rattus norvegicus and Mus musculus with 61 samples.

Results

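The proteasome genes were taken as every gene measured by a probe set whose only annotated symbol is Psma, Psmb, Psmc, Psmd, Psme, Psmf or Psmg followed by a digit. In mouse the rule found 46 genes (58 probe sets) of 8251 genes with such a single-symbol probe set, and in rat 27 genes (49 probe sets) of 4736. The 2 species shared 26 genes, and 47 symbols were found in all. Psmc3ip and Psme3ip1 in mouse matched by name only and encode no subunit. Each gene was represented by its probe set with the highest mean signal. A filter on low signal passed 42 of the 46 mouse genes and 27 of the 27 rat genes. The mouse genes that did not pass were Psmb9, Psmc4, Psmd2 and Psmc3ip.

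Parieto-occipital cortex was profiled on oligonucleotide arrays with Affymetrix probe sets after experimental brain injury in 2 rodents. Injured mice were male C57BL/6 animals of 20 to 25 g, anaesthetised with isoflurane and oxygen, that received a moderate controlled cortical impact from a pneumatic impactor at 6 m/s with 1.5 mm deformation. Cortex was taken at 4, 8, 24 or 72 h (3 arrays each) as a 4 mm disk that held the contusion, and sham-operated mice under the same anaesthetic gave 2 arrays at each time. Naive mice gave 2 arrays, and each mouse array held RNA from 3 pooled disks. Injured rats were male Sprague-Dawley animals of 400 ± 25 g under sodium pentobarbital, and their lesion was a fluid-percussion injury with a pressure pulse of 2.5 atm. Sham rats had the same anaesthetic. A 7 mm disk per rat was taken at 30 min (5 injury and 4 sham arrays), 4 h (3 and 4), or 8 h, 24 h, 72 h and 21 d (3 and 2 each), and naive rats gave 3 arrays. The 2 sham arrays of a mouse time carry the same number and a different letter in their titles, and the labels do not say whether they came from separate animals. A p-value therefore reflects array-to-array spread, which may be technical. The injured disks hold the contusion itself, and in such bulk tissue fewer cells of a type and less RNA per cell cannot be told apart.

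Summed signals of neuron, astrocyte and oligodendrocyte markers were 56394 to 61448, 8563 to 11300 and 16507 to 19306 in naive mouse arrays, and 27647 to 29443, 7563 to 9353 and 30180 to 42127 in naive rat arrays. Among the rat arrays, 4 stood apart from the rest: sham 4 h replicates 4 and 3, injury 30 min replicate 5 and sham 30 min replicate 3 had median correlations of 0.498, 0.633, 0.729 and 0.78 with the other rat arrays, against 0.809 to 0.924 for the other 35. All 24 h rat arrays were at the low end of that range, at 0.812, 0.825 and 0.814 in injury and 0.831 and 0.819 in sham arrays. Rat injury 72 h arrays had 0.875, 0.809 and 0.843, below the 0.903 and 0.912 of the sham 72 h arrays. The mouse arrays had 0.889 to 0.937. Both mouse sham 4 h arrays carried pituitary markers, whose summed signal was 2101 to 2505 in injury 4 h arrays and 18210 to 20462 in sham 4 h arrays.

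The proteasome is the barrel-shaped protease that degrades ubiquitin-tagged proteins. Its core stacks rings of alpha subunits (the Psma genes) and beta subunits (the Psmb genes). Caps of ATPases (Psmc) and non-ATPase subunits (Psmd) bind ubiquitin and unfold the substrate. Under interferon, cells replace the catalytic subunits Psmb5, Psmb6 and Psmb7 with Psmb8, Psmb9 and Psmb10, and add the PA28 activator built from Psme1 and Psme2. The resulting immunoproteasome is known for producing peptides for MHC class I. In brain it is best known from microglia, where its subunits are low at rest and rise with inflammation.

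Promoter windows of rat genes, from 250 bases before to 50 bases after the start, were available from RefSeq on build GRCr8 for 26 of the 27 rat members. They are shown for the inducible genes Psmb8 (chr20:4656982-4657281, minus strand), Psmb9 (chr20:4668750-4669049, plus strand) and Psme2 (chr15:33052702-33053001, minus strand) and for Psmb5 (chr15:32047330-32047629, minus strand), the counterpart that Psmb8 replaces. Each is written 5′ to 3′ along its gene, and distances are counted from the start that defines the window. That start lies inside the annotated gene for Psmb8, Psmb9 and Psme2, and the Psme2 window lies wholly within its gene. Capitals mark matches on either strand to the core of the interferon-stimulated response element (GAAANNGAA), the gamma-activated site (TTCNNNGAA) and the core of the antioxidant response element (TGACNNNGC).
Psmb8: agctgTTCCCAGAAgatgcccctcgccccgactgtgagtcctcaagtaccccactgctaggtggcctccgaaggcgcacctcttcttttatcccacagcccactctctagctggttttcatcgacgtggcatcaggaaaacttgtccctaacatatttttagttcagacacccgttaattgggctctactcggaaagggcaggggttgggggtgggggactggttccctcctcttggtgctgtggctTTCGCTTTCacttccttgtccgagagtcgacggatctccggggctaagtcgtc
Psmb9: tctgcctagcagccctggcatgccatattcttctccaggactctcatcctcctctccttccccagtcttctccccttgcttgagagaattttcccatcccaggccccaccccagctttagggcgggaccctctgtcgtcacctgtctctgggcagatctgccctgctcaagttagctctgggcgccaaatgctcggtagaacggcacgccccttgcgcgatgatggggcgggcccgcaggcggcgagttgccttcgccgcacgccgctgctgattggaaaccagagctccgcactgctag
Psme2: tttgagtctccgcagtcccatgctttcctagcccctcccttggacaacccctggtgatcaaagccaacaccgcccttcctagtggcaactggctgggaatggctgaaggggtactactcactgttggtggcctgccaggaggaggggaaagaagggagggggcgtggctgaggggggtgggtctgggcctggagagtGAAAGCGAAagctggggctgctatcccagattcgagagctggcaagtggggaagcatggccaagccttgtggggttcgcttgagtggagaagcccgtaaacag
Psmb5: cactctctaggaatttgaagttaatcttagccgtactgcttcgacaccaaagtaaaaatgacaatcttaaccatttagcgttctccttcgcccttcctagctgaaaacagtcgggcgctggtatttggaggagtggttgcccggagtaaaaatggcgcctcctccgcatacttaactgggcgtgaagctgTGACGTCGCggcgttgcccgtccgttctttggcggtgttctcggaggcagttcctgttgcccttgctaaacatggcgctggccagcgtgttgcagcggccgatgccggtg
The Psmb8 window held a gamma-activated site and, across its start site, a response element core on the opposite strand. Psme2 held a response element core 53 bases before that start, and Psmb5 an antioxidant element core 60 bases before its own. None of these letters was in the Psmb9 window. Tap1, the peptide transporter gene, lies between Psmb8 and Psmb9 on chromosome 20, and ends at base 4668543, before the annotated Psmb9 gene begins at base 4668952. Over all 33469 rat promoter windows, 9.71% held GAAANNGAA, 8.87% TTCNNNGAA and 12.1% TGACNNNGC. Of the 4 inducible members on the rat array, 2 held GAAANNGAA, 1 held TTCNNNGAA and 0 held TGACNNNGC, and of 22 other members 4, 0 and 4 did so. A match describes the sequence and does not show that a factor binds there.

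In injured mouse cortex, Psmb8, which encodes the inducible chymotrypsin-like subunit, rose at 8, 24 and 72 h. It was 3.68-fold higher at 72 h (log2 change 1.88 ± 0.34, limma standard error). At 4 h, Psmb8 signal was 268, 172 and 162 in injury arrays, against 234 and 225 in sham arrays, and the groups overlapped. At 8 h it was 426, 315 and 299 in injury arrays, against 182 and 97.7 in sham arrays. At 24 h the values were 381, 458 and 782 in injury arrays, against 179 and 127 in sham arrays. From 8 h on, every injury array lay above every sham array of its time and above both naive arrays (177 and 275). At 72 h, Psmb8 signal was 736, 729 and 822 in injury arrays, against 175 and 245 in sham arrays. These are means of 762 ± 52.3 in injured cortex (SD, n = 3) and 209.9 ± 49.0 in sham cortex (SD, n = 2), and the injury arrays of 72 h lay closest together.

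The Psmb8 change was -0.23 ± 0.34 at 4 h (adjusted p = 0.914), 1.36 ± 0.34 at 8 h (adjusted p = 0.0157), 1.77 ± 0.34 at 24 h (adjusted p = 0.00169) and 1.88 ± 0.34 at 72 h (adjusted p = 0.000654). The effect at 72 h exceeded the effect at 4 h by 2.11 ± 0.48 (adjusted p = 0.0117), a direct test of the difference. It uses the sham 4 h arrays with high pituitary markers, whose part in it was not tested. All mouse injury 4 h arrays carry the letter a in their titles, and the sham 4 h arrays the letters b and c. Injury and title letter therefore cannot be told apart at 4 h in mouse. The same limit holds for every mouse difference of the 72 h and 4 h effects. The 8 h call was lost with single arrays left out: without sham 8 h replicate 1c the change was 0.91 (adjusted p = 0.204), and without injury 8 h replicate 1 it was 1.20 (adjusted p = 0.0615). Without sham 24 h replicate 1d the 24 h change was 1.52 (adjusted p = 0.0509), and without sham 4 h replicate 1c the difference of effects was 2.08 (adjusted p = 0.0538). The call at 72 h held with each array left out in turn.

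Psmb9, the inducible partner that replaces Psmb6, was dim in mouse and did not pass the filter, since only 2 arrays, both injury 72 h, lay above its limit of 194. Its signal at 72 h was 229, 190 and 321 in injury arrays, against 45.7 and 63.9 in sham arrays. All 3 injury arrays of 72 h lay above all other mouse arrays, whose highest value was 161 (injury 24 h replicate 3). At 24 h it was 37.0, 141 and 161 in injury arrays, against 35.0 and 48.2 in sham arrays, so that 2 injury arrays were high and 1 was among the sham values. In a fit with no filter, over 8251 genes, the 72 h change of Psmb9 was 2.16 ± 0.53 (adjusted p = 0.0152). The same fit gave -0.46 ± 0.53 at 4 h (adjusted p = 0.887), -0.96 ± 0.53 at 8 h (adjusted p = 0.361), 1.20 ± 0.53 at 24 h (adjusted p = 0.208) and a 72 h effect above the 4 h effect by 2.62 ± 0.75 (adjusted p = 0.0688).

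The other inducible genes did not pass the test in mouse at any time. Psmb10, the inducible trypsin-like subunit, had a signal at 8 h of 2766, 2755 and 2250 in injury arrays, against 1548 and 2107 in sham arrays. Its groups did not overlap at 8 h, with a change of 0.51 ± 0.21 (adjusted p = 0.135). At 72 h, Psmb10 signal was 1994, 2450 and 1922 in injury arrays, against 1839 and 3225 in sham arrays, a change of -0.21 ± 0.21 (adjusted p = 0.582). Without sham 72 h replicate 1c that change was -0.61 (adjusted p = 0.0475). The 2 sham arrays of 72 h thus differed more from each other than the injury arrays did. Psme1, the alpha subunit of PA28, had a signal at 72 h of 1276, 1259 and 1110 in injury arrays, against 946 and 1251 in sham arrays (change 0.16 ± 0.24, adjusted p = 0.747). At 24 h, Psme1 signal was 615, 1341 and 756 in injury arrays, against 981 and 891 in sham arrays (change -0.13 ± 0.24, adjusted p = 0.796). The Psme1 groups overlapped at both times. Mouse Psme2 had no probe set with 1 symbol and was not analysed here.

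**Figure D1:**
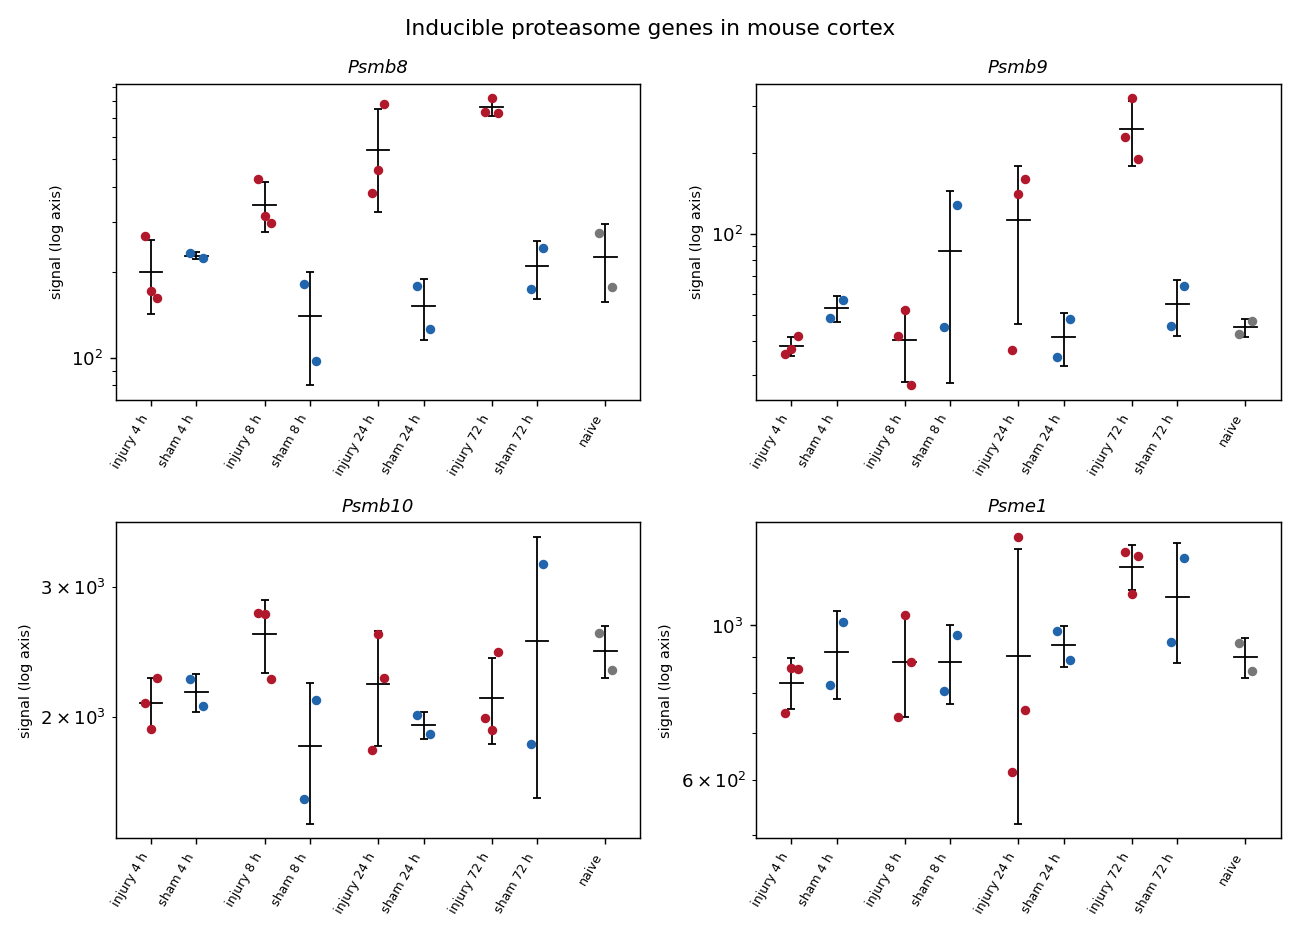
Signal of Psmb8, Psmb9, Psmb10 and Psme1 in mouse cortex on log axes, with 1 point per array, injury in red, sham in blue and naive in grey; horizontal lines are means and bars are SD. The 3 injury 72 h arrays of Psmb8 lie at 729 to 822, above both sham 72 h arrays at 175 and 245, while the Psme1 groups overlap at 72 h.

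The constitutive catalytic subunits did not pass the test in mouse at any time. Psmb5 signal at 72 h was 3605, 2617 and 3617 in injury arrays, against 3150 and 3014 in sham arrays (change 0.07 ± 0.20, adjusted p = 0.863). Psmb6 signal at 72 h was 3005, 2352 and 2875 in injury arrays, against 1801 and 2822 in sham arrays (change 0.28 ± 0.24, adjusted p = 0.519). Psmb7 signal at 72 h was 3115, 3030 and 3256 in injury arrays, against 2517 and 3944 in sham arrays (change -0.01 ± 0.16, adjusted p = 0.983). In all 3 genes the injury and sham arrays of 72 h overlapped.

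Each inducible gene was also set against its counterpart within an array, as the log2 ratio of the 2 signals minus the mean of that ratio over the time-matched sham arrays. These ratios are a description with no test. For Psmb8 over Psmb5 in mouse, the values at 72 h were 1.60, 2.05 and 1.76 in injury arrays, against -0.27 and 0.27 in sham arrays. At 24 h they were 1.84, 1.80 and 2.60 in injury arrays, against 0.51 and -0.51 in sham arrays. The ratio thus separated injury from sham at both times, as it did at 8 h (1.06 to 2.10 in injury arrays, against 0.66 and -0.66 in sham arrays). For Psmb9 over Psmb6, injury arrays had -0.49 to -0.70 at 4 h, against -0.20 and 0.20 in sham arrays, and -1.01, -0.99 and -1.61 at 8 h, against -0.39 and 0.39 in sham arrays. All injury arrays were thus below both sham arrays in this ratio at these early times. Psmb9 signal itself overlapped at 8 h, at 41.9, 52.1 and 27.45 in injury arrays, against 45.1 and 127.8 in sham arrays. At 4 h it was 35.9, 37.5 and 41.8 in injury arrays, against 48.9 and 57.0 in sham arrays. Naive arrays had 47.5 and 42.6, and all but the highest of these values were near the floor of 24.1. The ratio in injury arrays was -0.28, 0.92 and 1.75 at 24 h, against -0.02 and 0.02 in sham arrays. At 72 h it was 1.67, 1.75 and 2.22 in injury arrays, against 0.08 and -0.08 in sham arrays. For Psmb10 over Psmb7, injury arrays had 0.89, 0.86 and 0.71 at 8 h, against -0.38 and 0.38 in sham arrays, and at 72 h -0.27, 0.07 and -0.39, against -0.08 and 0.08 in sham arrays. Psmb8 and Psmb9 were thus higher relative to their counterparts in all 3 injury arrays than in both sham arrays of 72 h, and Psmb10 had overlapping values there.

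**Figure D2:**
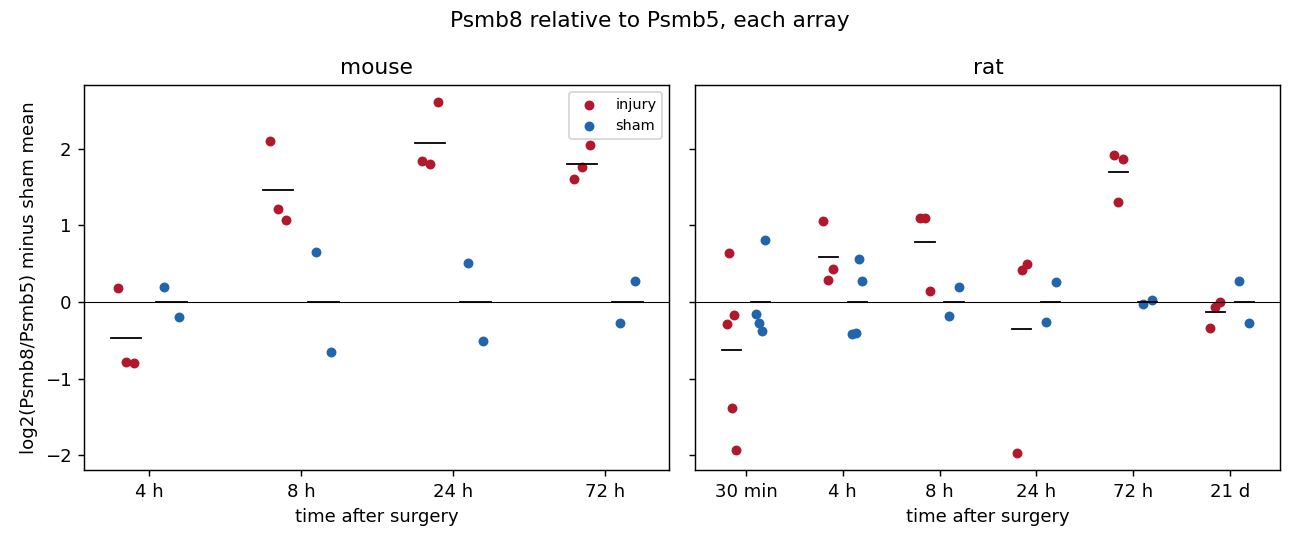
log2 ratio of Psmb8 to Psmb5 in each array minus the mean of that ratio over the time-matched sham arrays, in mouse and rat, with injury in red left of sham in blue and lines at the means. At 72 h all injury arrays lie at 1.60 to 2.05 in mouse and at 1.30 to 1.92 in rat, above every sham array of that time.

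Calls among the 42 mouse genes tested are given beside the share of all genes called. At 4 h 0 of 42 were called (adjusted p below 0.05 by limma), against 0.865% of all 6355 genes tested, and 2 of the 42 had an unadjusted p below 0.05, as did 9.06% of all genes. At 8 h 1 was called (Psmb8), against 8.18% of all genes. At 24 h 2 rose (Psmb8 and Psmd1), against 10.7%. At 72 h 2 rose (Psmb8 and Psma4) and 2 fell (Psmd11 and Psme4), against 15.5%. The test of the 72 h effect against the 4 h effect called 2, Psmb8 upward and Psme4 downward, against 5.22%. Sham against naive called 0 of 42, against 0.11% of all genes, with 3 at an unadjusted p below 0.05 (10.2% of all genes). Psmb8 changed by -0.33 ± 0.29 in sham against naive mice (adjusted p = 0.75).

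The 32 constitutive core and cap genes tested in mouse had a median log2 change of 0.06 at 4 h, -0.03 at 8 h, 0.13 at 24 h and 0.06 at 72 h, beside 0.002, -0.03, -0.04 and -0.01 for all genes tested. In both species this class took every tested Psmd gene. These included assembly chaperones of the cap, namely Psmd5, Psmd9 and Psmd10 in mouse and Psmd10 in rat. Of the 32, 28 stayed within 0.5 of 0 on the log2 scale at all 4 times. Taken singly, 32, 31, 28 and 31 of them did so at 4, 8, 24 and 72 h. Of all 6355 genes tested, 5540, 4877, 4764 and 4566 did so at these times. The 7 core alpha genes were above 0 at 24 h in all 7 cases, at 0.04 to 0.38, beside 2888 of all 6355 genes tested. None of the core alpha genes was called there or had an unadjusted p below 0.05 by limma. Among the genes other than the inducible ones, Psmd12, a cap subunit, had the highest change at 4 h (0.45 ± 0.31, adjusted p = 0.748) and at 24 h (0.68 ± 0.31, adjusted p = 0.189). Psmb2, a core beta subunit, had the highest at 8 h (0.50 ± 0.19, adjusted p = 0.122) and at 72 h (0.54 ± 0.19, adjusted p = 0.065). The lowest were Psmd5, an assembly chaperone of the cap, at 4 h (-0.45 ± 0.31, adjusted p = 0.759), Psmg2, an assembly chaperone of the core, at 8 h (-0.50 ± 0.26, adjusted p = 0.264), and Psmb5 at 24 h (-0.31 ± 0.20, adjusted p = 0.387).

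Psmd1, the large scaffold subunit of the cap, rose at 24 h. Its signal was 4222, 3746 and 5141 in injury arrays, against 2982 and 2814 in sham arrays, with no overlap (change 0.58 ± 0.17, adjusted p = 0.0293). The call was lost without injury 24 h replicate 1 or 3 (adjusted p = 0.0566 and 0.116) or sham 24 h replicate 1c or 1d (adjusted p = 0.107 and 0.201). Psma4, a core alpha subunit, rose at 72 h, with a signal of 2772, 2766 and 2413 in injury arrays, against 2128 and 1833 in sham arrays (change 0.42 ± 0.11, adjusted p = 0.0152). Without sham 72 h replicate 1d the Psma4 change was 0.31 (adjusted p = 0.189), without injury 72 h replicate 1 it was 0.39 (adjusted p = 0.0589), and against all uninjured arrays 0.18 (adjusted p = 0.242). With the title letter as a block the Psma4 change was 0.40 (adjusted p = 0.0745).

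Psme4, the gene of the PA200 activator, fell at 72 h. Its signal at 72 h was 752, 661.5 and 643 in injury arrays, against 1340 and 1478 in sham arrays (change -1.04 ± 0.20, adjusted p = 0.00109). The Psme4 level varied with time in both arms: at 4 h it was 1698, 1411 and 1423 in injury arrays, against 1084 and 1326 in sham arrays, and at 24 h 894, 689 and 982 in injury arrays, against 842 and 794.5 in sham arrays. Naive arrays had 704 and 771. The sham 72 h arrays were thus the high ones, and the injury 72 h arrays lay near the naive level. Against all uninjured arrays as 1 control group the 72 h change of Psme4 was -0.44 (adjusted p = 0.167). The difference between the 72 h and 4 h effects was -1.37 ± 0.28 (adjusted p = 0.00597), with both 4 h groups among the high values. Injury and title letter cannot be told apart in its 4 h part.

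Psmd11, a cap subunit, fell at 72 h on its brightest probe set, with 4377, 3895 and 3688 in injury arrays, against 4560 and 6601 in sham arrays (change -0.46 ± 0.15, adjusted p = 0.0426). Its other probe sets changed by -0.27 and 0.20 at 72 h, and the mean of the 3 gave -0.18 (adjusted p = 0.459). Without sham 72 h replicate 1d the change was -0.20 (adjusted p = 0.549). The call was also lost without injury 72 h replicate 2 or 3 (adjusted p = 0.0866 and 0.137) and with quantile normalization (adjusted p = 0.085).

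**Figure D3:**
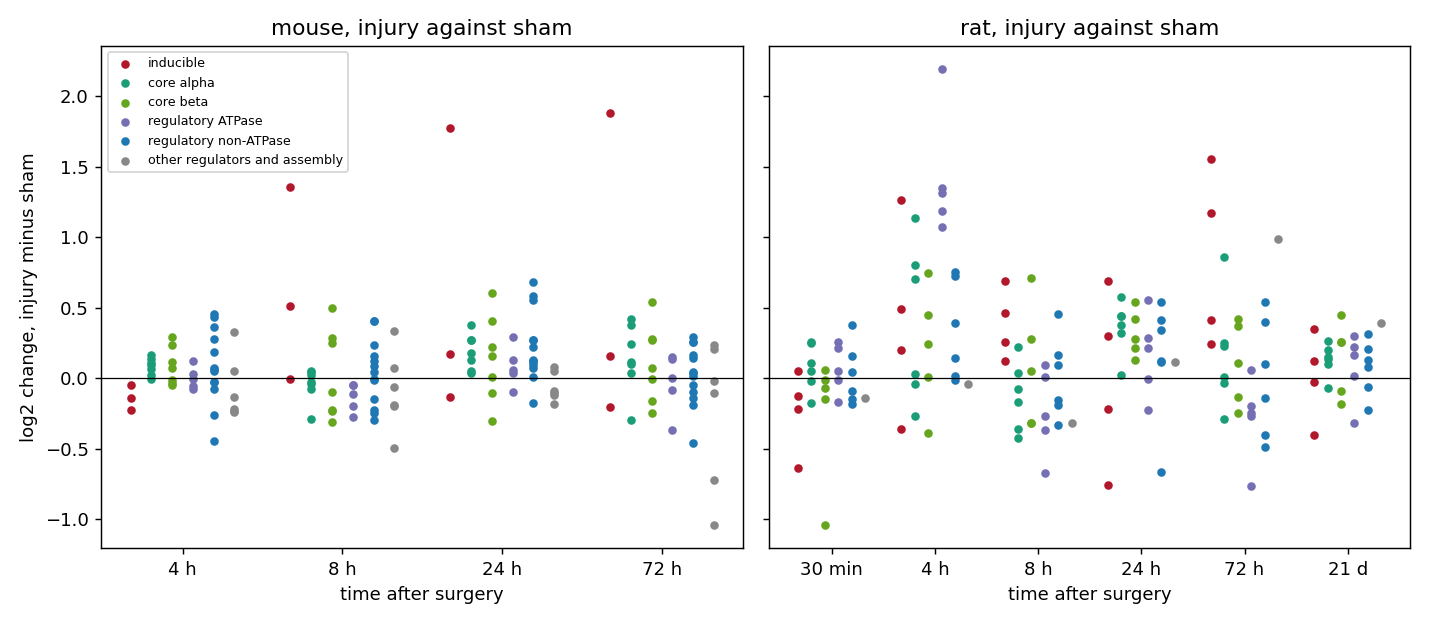
log2 change of every tested proteasome gene except Psme3ip1, injury minus time-matched sham, by time in mouse (left) and rat (right), with 1 point per gene and colours for the class of subunit. Mouse Psmb8 stands apart at 8, 24 and 72 h (1.36, 1.77 and 1.88), and the cap ATPases stand high in rat at 4 h (1.07 to 2.19). Sham replicates 3 and 4 of rat 4 h stood apart from the other rat arrays.

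In rat cortex, mean Psmb8 and Psmb9 signals were highest at 72 h after injury, and neither passed the test against the sham arrays of that time. Psmb8 signal at 72 h was 1073, 1165 and 1555 in injury arrays, against 472 and 382 in sham arrays. Psmb9 signal at 72 h was 563, 346 and 534 in injury arrays, against 168 and 260 in sham arrays. Every injury array of 72 h lay above both sham arrays for both genes. The change of Psmb8 was 1.56 ± 0.57 (adjusted p = 0.153), and that of Psmb9 was 1.17 ± 0.48 (adjusted p = 0.224). Without the 4 arrays that stood apart the same changes had adjusted p = 0.0569 for Psmb8 and 0.0588 for Psmb9. With all uninjured rat arrays as 1 control group, Psmb8 changed by 1.59 (adjusted p = 0.0167) and Psmb9 by 1.39 (adjusted p = 0.00609). The 72 h effect minus the 4 h effect was 1.36 ± 0.74 for Psmb8 (adjusted p = 0.236) and 0.68 ± 0.63 for Psmb9 (adjusted p = 0.477). The injury 72 h arrays also correlated less with the other rat arrays than the sham 72 h arrays did. The part of this difference in the 72 h changes was not tested.

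The rat Psmb8 level differed widely among arrays at other times. At 24 h it was 173, 1062 and 932 in injury arrays, against 546 and 767 in sham arrays, so that 1 injury array was below and 2 were above both sham arrays (change -0.22 ± 0.57, adjusted p = 1). At 8 h it was 347, 757 and 581 in injury arrays, against 422 and 358 in sham arrays (change 0.46 ± 0.57, adjusted p = 0.905). At 4 h it was 334 to 471 in injury arrays, against 269 to 397 in sham arrays, and at 30 min 169.5 to 811 in 5 injury arrays (median 452), against 512 to 864 in 4 sham arrays (median 555). At 21 d it was 573, 733 and 508 in injury arrays, against 485 and 621 in sham arrays (change 0.12 ± 0.57, adjusted p = 1). These groups overlapped at every time but 72 h. Naive rats had 298, 106 and 309.7, and sham against naive rats gave 1.16 ± 0.39 (adjusted p = 0.716).

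Psmb9 in rat stood at 288, 458 and 559 in injury arrays at 24 h, against 208.8 and 325 in sham arrays (change 0.69 ± 0.48, adjusted p = 1). Against all uninjured arrays its 24 h change was 1.23 (adjusted p = 0.0149). The 24 h arrays, sham included, correlated less with the other rat arrays. In that comparison such a difference and injury cannot be told apart. At 4 h Psmb9 had 153 to 306 in injury arrays, against 85.1 to 303 in sham arrays, and at 21 d 246 to 340 in injury arrays, against 159 and 302 in sham arrays. At 8 h it had 154 to 188 in injury arrays, against 105 and 198 in sham arrays, and at 30 min 138 to 294 (median 161) in injury arrays, against 141 to 336 (median 185) in sham arrays. Only at 72 h did the Psmb9 groups not overlap. These values are from 1 of its 2 rat probe sets, and the other is not described here.

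The probe sets of Psme1 disagreed in rat. On the brighter one, Psme1 signal at 72 h was 5903, 4217 and 6343 in injury arrays, against 4311 and 4866 in sham arrays (change 0.24 ± 0.81, adjusted p = 0.938). On a second probe set it was 3230, 3755 and 5121 in injury arrays, against 1475 and 1638 in sham arrays, with no overlap. In a fit of all 5829 rat probe sets with 1 symbol, chosen after the disagreement was seen, the second probe set changed by 1.35 ± 0.34 at 72 h (adjusted p = 0.0229). Without the 4 arrays that stood apart it changed by the same 1.35 with an adjusted p of 0.000352. Its 72 h effect exceeded its 4 h effect by 2.13 ± 0.44 (adjusted p = 0.00628), and by 1.52 ± 0.32 without the 4 arrays (adjusted p = 0.00789), where the brighter probe set gave -1.03 ± 1.06 with all arrays (adjusted p = 0.523) and 0.49 ± 0.67 without the 4 (adjusted p = 0.745). Which of the 2 follows the Psme1 transcript was not tested.

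Psme1 on the brighter probe set was also the gene with 1 sham 30 min array far from its group, at 839 in replicate 4 beside 3862 to 3882 in the other 3. Injury 30 min replicates 4 and 5 were low as well, at 1139 and 837. At 4 h this probe set had 4101, 3640 and 3234 in injury arrays, against 3518, 5317, 1590 and 178 in sham arrays, the last 2 being replicates 3 and 4. At 8 h the brighter Psme1 probe set had 5782, 5266 and 4770 in injury arrays, against 3520 and 3009 in sham arrays, and at 24 h 2970, 3537 and 2674 in injury arrays, against 5250 and 5026 in sham arrays. Its groups thus did not overlap at either time, in opposite directions, and neither change was called (0.69 ± 0.81, adjusted p = 0.898, and -0.76 ± 0.81, adjusted p = 1). On the second probe set the 24 h values were 2427, 2957 and 3159 in injury arrays, against 1984 and 2191 in sham arrays. They separated the other way, with a change of 0.44 ± 0.23 in the fit without the 4 arrays (adjusted p = 0.629). The probe sets thus disagreed at 24 h too. On the brighter probe set the Psme1 change at 4 h was 1.26 ± 0.67 (adjusted p = 0.203), without the 4 arrays -0.25 (adjusted p = 0.934), and without sham 4 h replicate 2 alone 1.87 (adjusted p = 0.0356). Psme2, the beta subunit of PA28, had 424, 665 and 1049 in injury arrays at 72 h, against 395 and 634 in sham arrays (change 0.41 ± 0.49, adjusted p = 0.777). At 24 h Psme2 had 488, 284 and 446 in injury arrays, against 365 and 284 in sham arrays (change 0.30 ± 0.49, adjusted p = 1). Its groups overlapped at both times. At 4 h Psme2 had 488, 489 and 422 in injury arrays, against 438, 241, 1359 and 888 in sham arrays, the last 2 again being replicates 3 and 4. The 4 h change was -0.36 ± 0.41 (adjusted p = 0.56), and without the 4 arrays 0.52 (adjusted p = 0.704).

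**Figure D4:**
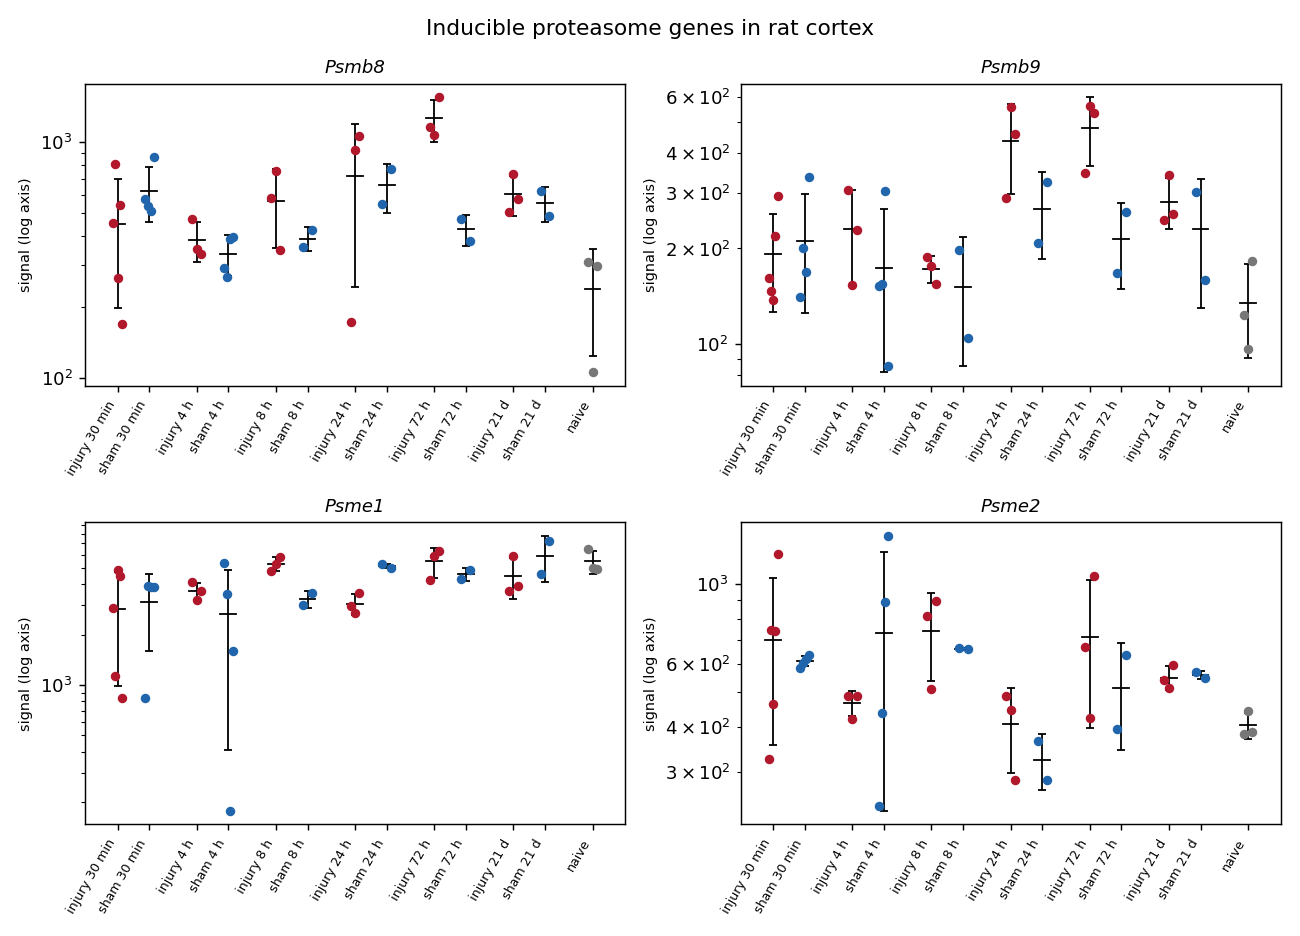
Signal of Psmb8, Psmb9, Psme1 (brighter probe set) and Psme2 in rat cortex on log axes, with 1 point per array, injury in red, sham in blue and naive in grey; horizontal lines are means and bars are SD. Psmb8 lies at 1073 to 1555 in the 3 injury 72 h arrays, above the sham 72 h arrays at 382 and 472, and Psme1 is at 178 in sham 4 h replicate 4.

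The ratio of Psmb8 to Psmb5 in rat, relative to sham, was 1.30, 1.92 and 1.86 in injury arrays at 72 h, against -0.02 and 0.02 in sham arrays. At 24 h it was -1.97, 0.50 and 0.42 in injury arrays, against -0.26 and 0.26 in sham arrays. Psmb5 itself had 7168, 5060 and 7025 in injury arrays at 72 h, against 7871 and 6172 in sham arrays (change -0.14 ± 0.22, adjusted p = 0.852). Psmb8 was thus high relative to Psmb5 in every injured rat at 72 h, and Psmb5 overlapped between the groups. Rat Psmb6, Psmb7 and Psmb10 had no probe set with 1 symbol and were not analysed here.

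The same counts were taken for the 27 rat genes. At 30 min 0 were called, against 0.0244% of all 4091 genes tested, with 1 at an unadjusted p below 0.05 (3.23% of all genes). At 4 h 3 rose (Psmc1, Psmc4 and Psma7), against 4.99%. At 8 h 0 were called, against 0.709%, and 0 had an unadjusted p below 0.05 (8.24% of all genes). At 24 h 0 were called, against 0.269%, with 1 at an unadjusted p below 0.05 (4.86% of all genes). At 72 h 0 were called, against 2.76%, with 3 at an unadjusted p below 0.05 by limma (14.9% of all genes). At 21 d 0 were called, against 0% of all genes, and 0 had an unadjusted p below 0.05 (1.22% of all genes). The difference of the 72 h and 4 h effects called 0, against 4.72%, with 6 at an unadjusted p below 0.05 (25.7% of all genes). Sham against naive called 0, against 0.0244%, with 1 at an unadjusted p below 0.05 (5.33% of all genes).

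The 3 calls at 4 h rested on 2 sham arrays. Psmc4, an ATPase of the cap, had 1074, 1392 and 855 in injury arrays, against 992, 844, 98.2 and 38.5 in sham arrays, and the low values were sham replicates 3 and 4, which stood apart. Its change was 2.19 ± 0.59 (adjusted p = 0.037), and 0.25 without the 4 arrays (adjusted p = 0.842). Psmc1, another cap ATPase, had 2359, 2322 and 2430 in injury arrays, against 1962, 1880, 519 and 429 in sham arrays. It changed by 1.32 ± 0.33 (adjusted p = 0.0281), and by 0.30 without the 4 arrays (adjusted p = 0.589). The same 2 sham replicates were the low ones for Psma7, a core alpha subunit, with 3492, 3134 and 3161 in injury arrays, against 3633, 2609, 708 and 721 in sham arrays. Psma7 changed by 1.14 ± 0.34 (adjusted p = 0.0467), and by 0.08 without the 4 arrays (adjusted p = 0.943). Its other probe set changed by -0.17. Of the 5 cap ATPases measured in rat, all 5 had changes of 1.07 to 2.19 at 4 h, and of 0.01 (Psmc3) to 0.41 (Psmc2) without the 4 arrays. In the 2 sham arrays the drop was uneven: Psmb5, on its brightest probe set, had 6474 and 5246 there, beside 7053 and 7753 in the other 2, while its other probe sets changed by 1.83 and 0.96 at 4 h.

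**Figure D5:**
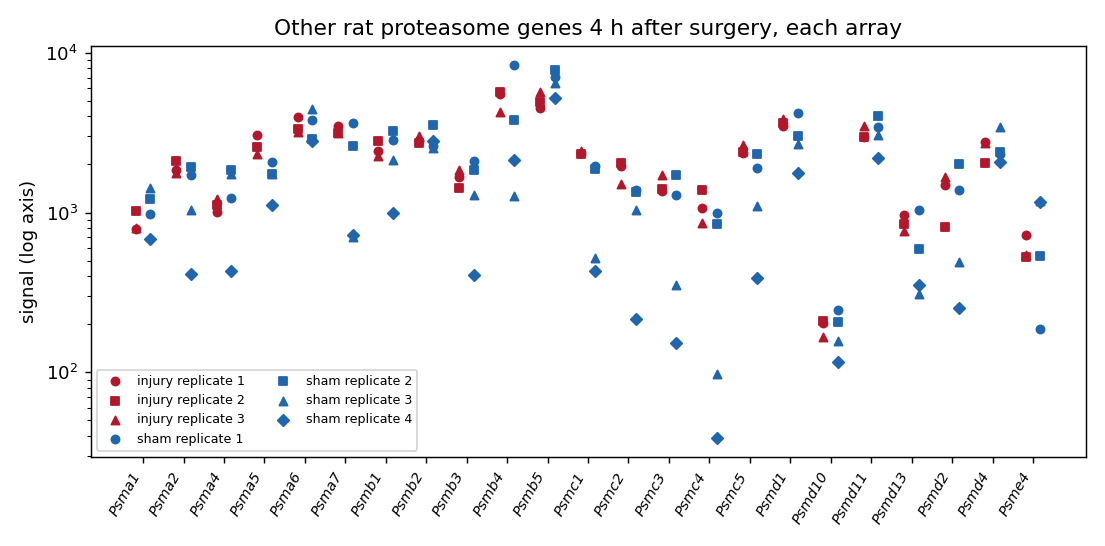
Signal of the 23 rat proteasome genes other than the inducible ones, 4 h after surgery, on a log axis with 1 marker per array, injury in red left of sham in blue. Sham replicates 3 (triangles) and 4 (diamonds) lie far below the others in several genes, down to 98.2 and 38.5 for Psmc4.

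The median log2 change over the 27 rat genes at 4 h was 0.45, beside -0.12 for all genes tested, and without the 4 arrays 0.07, beside 0.01. At the later times the 22 constitutive genes had medians of -0.12 at 8 h, 0.30 at 24 h, -0.01 at 72 h and 0.14 at 21 d, beside 0.06, 0.002, 0.07 and -0.03 for all genes. Of the 22, 8 stayed within 0.5 of 0 at all 6 times, and 12 did so without the 4 arrays. With all arrays, 21, 11, 20, 17, 19 and 22 did so at 30 min, 4 h, 8 h, 24 h, 72 h and 21 d. Of all 4091 genes tested, 3373, 1803, 2560, 3150, 2264 and 3418 did so at these times. At 72 h, Psmc5, a cap ATPase, had the lowest change (-0.76 ± 0.45, adjusted p = 0.453), and Psme4 the highest outside the inducible genes (0.98 ± 0.50, adjusted p = 0.364). The Psme4 value was of the opposite sign to that in mouse, and the difference between species was not tested. Psmb4, a core beta subunit, had the lowest at 30 min (-1.05 ± 0.47, adjusted p = 1), and without the 4 arrays its change was -0.23 ± 0.27 (adjusted p = 1). Psma1, a core alpha subunit, had 1108, 1719 and 1801 in injury arrays at 72 h, against 780 and 890 in sham arrays, with no overlap, and was called only without the 4 arrays (0.86 ± 0.26, adjusted p = 0.0367) or without injury 72 h replicate 1.

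Genes of the pathway by which the immunoproteasome feeds MHC class I, and of interferon signalling, were examined beside Psmb8. The shares of all mouse genes called were 0.865%, 8.18%, 10.7% and 15.5% at 4, 8, 24 and 72 h. Of 8 antigen peptide genes tested, 0 were called at 4 h (1 with an unadjusted p below 0.05), 2 rose at 8 h, 1 at 24 h and 4 at 72 h. The count at 24 h is near the share of all genes. Their median log2 change at 72 h was 0.86, beside -0.01 for all genes. At 72 h these were B2m, the class I light chain (2.21 ± 0.25, adjusted p = 4.86e-06), the class I heavy chains H2-K1 (1.02 ± 0.14, adjusted p = 5.32e-05) and H2-D1 (0.99 ± 0.17, adjusted p = 0.000387), and Tap1 (1.17 ± 0.22, adjusted p = 0.00105). Tap2, the partner of Tap1 in the transporter, changed by -0.13 ± 0.54 (adjusted p = 0.912). Of 13 interferon signalling genes, 0 were called at 4 h (4 with an unadjusted p below 0.05), 3 rose at 8 h, 6 at 24 h and 6 at 72 h, when their median was 0.50. They included Irf1, a transcription factor that drives immunoproteasome genes, at 8 h (1.07 ± 0.24, adjusted p = 0.00874) and 24 h (1.09 ± 0.24, adjusted p = 0.00609). Gbp2, an interferon-induced GTPase, rose by 3.98 ± 0.35 at 8 h (adjusted p = 5.22e-07) and 3.26 ± 0.35 at 72 h (adjusted p = 2.86e-06), and Irf8, a myeloid factor, by 1.57 ± 0.23 at 72 h (adjusted p = 8.82e-05).

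Genes that act before the proteasome, regulate it or build it were also examined. Of 11 ubiquitin pathway genes in mouse, 1 fell at 8 h (Usp14, the proteasome-bound deubiquitinase, -0.75 ± 0.19, adjusted p = 0.0198) and 2 fell at 72 h. These shares are near those of all genes called, 8.18% at 8 h and 15.5% at 72 h. At 4 h and 24 h 0 were called, with 1 at an unadjusted p below 0.05 at each time. The genes that fell at 72 h were the conjugating enzymes Ube2d3 (-0.91 ± 0.18, adjusted p = 0.00185) and Ube2b (-0.51 ± 0.14, adjusted p = 0.0155). Of 4 regulation and assembly genes, Pomp, the core's maturation factor, fell at 8 h (-0.88 ± 0.20, adjusted p = 0.00906). Nfe2l2, which encodes the stress factor Nrf2, rose at 24 h (0.96 ± 0.21, adjusted p = 0.00535) and 72 h (1.28 ± 0.21, adjusted p = 0.00032). Nfe2l1, whose product restores constitutive proteasome genes when the proteasome is inhibited, changed by -0.37 ± 0.16 at 72 h (adjusted p = 0.143). In rat, Irf1 (1.44 ± 0.29, adjusted p = 0.00444), Gbp2 (1.94 ± 0.57, adjusted p = 0.0459) and Ube2d2 (1.66 ± 0.42, adjusted p = 0.0272) were called at 4 h, where 2 sham arrays stood apart. Without the 4 arrays Irf1 was still called (1.53 ± 0.32, adjusted p = 0.00891), and Gbp2 (1.94 ± 0.65, adjusted p = 0.196) and Ube2d2 (0.53 ± 0.33, adjusted p = 0.658) were not. All rat injury 4 h arrays carry the letter b in their titles and all rat sham 4 h arrays the letter a. Injury and title letter cannot be told apart there. At 72 h in rat, 0 of 7 antigen peptide genes, 0 of 10 interferon signalling genes, 0 of 7 ubiquitin genes and 0 of 3 regulation and assembly genes were called by limma, with 2, 3, 0 and 1 at an unadjusted p below 0.05. Of all rat genes, 2.76% were called at 72 h and 14.9% had an unadjusted p below 0.05. B2m there changed by 0.86 ± 0.30 (adjusted p = 0.125) and Tap1 by 0.21 ± 0.31 (adjusted p = 0.837). Without the 4 arrays, 3 of these genes were called at 72 h: B2m (0.86 ± 0.25, adjusted p = 0.0272), Pdia3, a chaperone of class I peptide loading (1.12 ± 0.27, adjusted p = 0.00809), and Ube2b (-0.76 ± 0.23, adjusted p = 0.0312). In that fit, 217 of all 4091 genes rose at 72 h and 159 fell, so more genes were called in general.

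Markers of several cell types differed between injury and sham at the times of these changes. Of all mouse genes, 0.865%, 8.18%, 10.7% and 15.5% were called at 4, 8, 24 and 72 h, and of all rat genes 2.76% at 72 h. An unadjusted p below 0.05 at 72 h was seen in 27.2% of all mouse genes and 14.9% of all rat genes. In mouse 2, 6, 10 and 14 of 14 microglia and macrophage markers rose at 4, 8, 24 and 72 h, and their summed signal at 72 h was 48323 to 62486 in injury arrays, against 11643 to 12070 in sham arrays. In rat 5 of 9 rose at 72 h, with sums of 26889 to 42772 in injury arrays, against 11347 to 12381 in sham arrays. Of 3 T and B cell markers tested in mouse and 5 in rat, 0 were called at 72 h (0 in mouse and 2 in rat had an unadjusted p below 0.05), with sums of 926 to 1107 in mouse injury arrays against 1108 to 1139 in sham arrays, and of 1516 to 2184 in rat injury arrays against 1326 to 1381 in sham arrays. Of 7 endothelial markers in mouse, 3 rose at 72 h, with sums of 6313 to 7223 in injury arrays, against 3147 to 4052 in sham arrays. Of 4 neutrophil markers in mouse, 2 rose at 8 h, with sums of 1592 to 2242 in injury arrays, against 774 to 926 in sham arrays, and 2 at 24 h, with 1421 to 1896 in injury arrays, against 855 to 884 in sham arrays. Of 4 oligodendrocyte markers in mouse, 2 rose at 8, 24 and 72 h, and in rat at 72 h the sums of 5 such markers were 23543 to 32671 in injury arrays, against 40303 to 42380 in sham arrays. The 4 astrocyte markers, of which 2 rose, summed to 23098 to 25880 in mouse injury arrays at 72 h, against 12772 to 14603 in sham arrays. Neuron markers summed to 42480 to 47329 in mouse injury arrays at 72 h, against 35640 to 57842 in sham arrays, and in rat to 6507 to 15658 in injury arrays, against 26316 to 27275 in sham arrays, where 1 of 6 fell. The part of these cell types in the change of Psmb8 and Psmb9 was not tested.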

How the data were processed

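The authors deposited a linear intensity for each of 12488 probe sets on 22 mouse arrays and of 8799 on 39 rat arrays. The software that made these intensities is not given in the sources used here. The number of arrays limits the precision. A trimmed mean (2% at each end) of 799.9 in mouse and of 800 in rat arrays showed a common scale.

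Values under the 10th percentile of all arrays of a species (mouse 24.1, rat 32.1) were set to it before log2. To pass, a probe set had to exceed the 40th percentile (mouse 194, rat 202.5) in 3 or more arrays. Genes came from the platform annotation. Probe sets with several symbols (396 in mouse, 308 in rat) or none were not used, which left 6355 mouse and 4091 rat genes, each with its brightest probe set. Each species had 1 fit with a mean per group in limma 3.58.1 (R 4.3.3; lmFit, eBayes with a trend; 13 and 26 residual degrees of freedom), tested on simulated data. Calls needed an adjusted p below 0.05 (Benjamini-Hochberg, over every gene of a contrast). Changes are log2 differences ± limma's standard error.

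The members, gene lists, named genes and tests were chosen with earlier results of these data known. Named were the inducible genes, their counterparts, up to 4 called genes per contrast and list, and the highest and lowest other member. Psma1, and the second Psme1 probe set, were named after their values were seen. Alternatives were averaging the probe sets of a gene, a 25th percentile floor, testing unfiltered genes, quantile normalization, only the compared groups, all uninjured arrays as 1 control group, title letter (mouse only) or replicate number as a block, averaged mouse sham arrays, a rat fit without 4 arrays, and each array left out. Where leaving out or averaging arrays left a lone sham sample, its spread was taken from the remaining groups. Figures used matplotlib 3.10.9 in Python 3.11.15.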

Additional observations from a re-analysis of the deposited data

Results flagged for a closer look

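In mouse, the effect of injury on Psmb8 differed between 72 h and 4 h by 2.11 on the log2 scale, and that on Psme4 by -1.37, both by a direct test of the difference of effects. In both, injury and title letter cannot be told apart at 4 h. In rat, a check for an array far from the others of its group flagged 1 case: Psme1 on its brighter probe set had a signal of 839 in sham 30 min replicate 4. This was 1 of 33 gene and group combinations checked for such an array, and chance gives about 1 in 20. Sham 4 h replicates 3 and 4 also lay far below the others of their group in several genes, and were not flagged.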

How the results depend on the processing

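The Psmb8 call in mouse at 72 h held under every alternative run for it. The mouse count of called proteasome genes at 8 h was 0 with only the compared groups or with averaged sham arrays, 2 with all uninjured arrays as 1 control group, and 0 to 1 when single arrays were left out. At 24 h it was 1 with only the compared groups, averaged sham arrays or the replicate block, 5 against all uninjured arrays, and 0 to 2 with single arrays left out. At 72 h it was 2 with only the compared groups, the title letter as a block or averaged sham arrays, and 3 to 8 with single arrays left out, 8 being without sham replicate 1c. For the 72 h effect against the 4 h effect it was 0 with averaged sham arrays and 1 to 4 with single arrays left out. In rat at 4 h the count was 0 without the 4 arrays, against all uninjured arrays and with a fit of the compared groups alone, and 0 to 10 with single arrays left out, 10 being without sham replicate 2. Against all uninjured arrays it was 2 at 24 h (Psmb2 and Psmb9) and 2 at 72 h (Psmb8 and Psmb9). At 72 h it was 1 without the 4 arrays (Psma1), where 217 of all 4091 genes rose and 159 fell. With single arrays left out it was 0 to 1 at 72 h, and the rat difference of effects gave 0 to 6. Psme1 on its second rat probe set gave 2.13 for that difference, with its sign turned. The Psmb8 call in mouse at 8 h had an adjusted p of 0.0569 with only the compared groups, 0.0964 with the letter block and 0.0967 with averaged sham arrays, and its difference of effects had 0.0902 with averaged sham arrays. Of 902 gene values under an alternative, 60 lost a call, 6 gained one, and 56 turned their sign, 1 of these with a call. The numbers were not taken to pair arrays. In rat at 30 min, 3 of 4 same-numbered pairs correlated at 0.25 to 0.36 in their deviations from the group means and the other at -0.41, and 4 of 8 arrays there, and 2 of 6 at 4 h, correlated best with their own number. In mouse both sham arrays carry the number 1, so no such check could be made. Under the replicate block Psmd1 had an adjusted p of 0.0617, Psmd11 of 0.111 and Psma7 of 0.0681. The letter block could give no value for mouse 4 h, sham against naive or the difference of effects, since one letter holds only 4 h injury and naive arrays. It was not run in rat, where title letter and injury coincide at 4 h.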
